A study of Mus musculus with 8 samples.

Results

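Open regions that a peak caller reported in 1 of 8 ATAC-seq libraries and in none of the other 7 were described in haematopoietic stem cells (HSC) of mouse bone marrow. ATAC-seq marks open chromatin by the insertion of sequencing adapters with a transposase, and a peak is a stretch where inserted fragments pile up above their local background. The regions were chosen by the peak calls themselves: overlapping peaks of all 8 deposited lists on chromosomes 1 to 19 were merged, and a merged region was kept when exactly 1 library contributed a peak. This gave 10229 single-library regions of 88724 merged regions (11.5%). How many libraries called a region, and the strength of its peak, are therefore not findings and are given without a test.

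HSC renew themselves and supply all blood lineages, and the transcription factor BCL11A is known for silencing fetal globin genes in red cells and for its need in lymphoid development. Vav1-cre switches alleles in blood-forming cells and their progeny. Mice of the genotypes Vav1-cre-iMOSBcl11a-MUT and Vav1-cre-iMOSBcl11a-WT, labelled as 2-3 months old (3 months in the design text), gave HSC that the study sorted into T1 and T2, so all 4 groups carry Vav1-cre and an iMOS Bcl11a allele. The protocol calls the sorted cells LT-HSC, the long-term repopulating kind. Each group (MUT T1, MUT T2, WT T1 and WT T2) had 2 libraries, made from 5000 nuclei each. The design text names the role of Bcl11a within HSC and the effect of its overexpression on wild-type HSC beside them as the questions. What sets T1 apart from T2, which of them carries a transgene, and whether libraries came from separate or pooled animals are not given in the sources used here. P-values therefore measure the spread between these libraries, which may be technical.

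In ATAC-seq of most cell types, promoters are open in nearly every sample, whereas distal elements such as enhancers vary more from cell type to cell type. A peak list reports a region only above a threshold, so a region missing from a list can be open there below it. The lists held 60944 to 73328 peaks on chromosomes 1 to 19, and the lowest deposited −log10 q-value was 3.0 to 3.04 per library. The genome background of each library, the fragments expected at any position, was recovered from the deposited values and served as a measure of depth. It rises with the number and with the length of the fragments, which were not told apart. It was 3.10 to 3.38 in 5 deeper libraries (MUT T1 replicate 1 and all MUT T2 and WT T1 libraries) and 1.89 to 2.45 in 3 shallower ones (both WT T2 libraries and MUT T1 replicate 2). A region called in all 8 libraries reached within 1 kb of an end of 9 of 10 HSC marker genes. The same held for 5 of 5 megakaryocyte, 4 of 5 stromal and endothelial, 3 of 5 erythroid, 2 of 5 B-cell, 1 of 5 granulocyte and monocyte, and 0 of 5 T and NK markers. For scale, 14818 of 31396 windows at gene starts, defined below, touched a region called in all 8 libraries. That measure is narrower, the share of all genes within 1 kb is not given, and the marker counts were not tested.

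Few single-library regions lay over a gene start. RefSeq start windows (250 bases before to 50 after a start, GRCm38.p6, the build also called mm10) numbered 31396 on these chromosomes. A single-library region reached 205 windows that no more widely called region touched, and 200 single-library regions (1.96%) touched a window at all. The share was 2.63% of regions called in 2 to 7 libraries and 23.1% of those called in all 8. Among the strongest of them by −log10 q were those at Gm33933, Gm52042, Nlrp3 and A930009A15Rik. At Gm52042 (WT T1 replicate 1, −log10 q 17.2) the overlap was 3 bases. The other 3 upstream sequences are shown as strong examples and do not stand for all 205. They run from 250 bases upstream to the start, 5′ to 3′ on the gene's strand, credited to RefSeq. Capitals mark matches to 6 short words, of which none contains another, searched on both strands. The word known for binding by BCL11A itself is TGACCA, and that for the RUNX factors of blood development is TGTGGT. The GATA word, read by factors of red-cell and platelet genes, is AGATAA, and the word for the large ETS family is CGGAAG. The AP-1 word, read by Fos and Jun dimers, is TGAGTCA, and the E-box for helix-loop-helix factors is CAGCTG.

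Nlrp3: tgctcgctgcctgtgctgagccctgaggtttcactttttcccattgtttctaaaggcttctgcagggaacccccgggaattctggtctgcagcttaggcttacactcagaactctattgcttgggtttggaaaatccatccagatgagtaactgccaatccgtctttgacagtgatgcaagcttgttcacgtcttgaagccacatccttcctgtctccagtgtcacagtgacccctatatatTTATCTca

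Gm33933: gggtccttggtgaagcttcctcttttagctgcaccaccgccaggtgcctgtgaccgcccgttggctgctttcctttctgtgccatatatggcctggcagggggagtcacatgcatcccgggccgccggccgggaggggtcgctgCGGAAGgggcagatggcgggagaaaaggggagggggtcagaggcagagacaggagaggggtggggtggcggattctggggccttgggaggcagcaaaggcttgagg

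A930009A15Rik: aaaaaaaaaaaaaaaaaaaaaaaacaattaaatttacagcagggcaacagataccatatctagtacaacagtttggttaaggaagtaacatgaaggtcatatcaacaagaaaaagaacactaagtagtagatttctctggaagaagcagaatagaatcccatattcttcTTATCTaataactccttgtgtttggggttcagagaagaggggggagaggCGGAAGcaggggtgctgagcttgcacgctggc

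The Nlrp3 sequence (chr11:59541319-59541568, plus strand) precedes a start of the gene for the sensor of the NLRP3 inflammasome. It lay wholly inside a region of 578 bp called in WT T1 replicate 2 (fold enrichment 5.67, −log10 q 15.4). It holds 1 GATA word and is 48% G and C. The Gm33933 sequence (chr14:6605081-6605330, minus strand) shared 164 bases with a region called in MUT T1 replicate 2 (fold enrichment 10.2, −log10 q 22.6), holds 1 ETS word and is 65.2% G and C. The A930009A15Rik sequence (chr10:115569767-115570016, plus strand) shared 166 bases with a region called in MUT T2 replicate 1 (fold enrichment 6.65, −log10 q 14.5). It holds 1 GATA and 1 ETS word and is 38% G and C. None of the 3 holds the BCL11A word.

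Whole windows reached by single-library regions alone stood close to those called in 2 to 7 libraries in G and C content and ETS word. They stood away from those called in all 8. In the RUNX and AP-1 words they stood about as close to windows with no region. Their median G and C content was 53.3%, equal to the 53.3% of windows called in 2 to 7 libraries, against 61.7% in windows called in all 8 and 47% in windows with no region. The ETS word stood in 8.29% of the 205 windows, 8.96% of the 882 called in 2 to 7 libraries, 29.3% of the 14818 called in all 8, 5.80% of those with no region and 17.0% of all. The GATA word stood in 14.1%, 12.1%, 5.80%, 16.2% and 11.2% in the same order, and the RUNX word in 22.4%, 20.3%, 12.3%, 20.7% and 16.7%. For the BCL11A word the shares were 13.2%, 13.3%, 10.4%, 16.8% and 13.7%. For the AP-1 word they were 6.83%, 7.60%, 3.57%, 6.71% and 5.26%, and for the E-box 23.4%, 19.6%, 15.2%, 17.1% and 16.3%. A match is a description of the letters and no evidence of binding.

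Every library had single-library regions, and their number was higher in each of the 5 deeper libraries than in any shallower one. MUT T1 had 1799 (replicate 1) and 710 (replicate 2), 2.47% and 1.13% of the peaks in those lists. MUT T2 had 1900 and 1308, or 2.59% and 1.87%. WT T1 had 1640 and 1510, or 2.33% and 2.12%, and WT T2 had 893 and 469, or 1.35% and 0.770%. Replicates of WT T1 were thus the closest to each other, and those of MUT T1 the farthest apart. Group means were 1254 ± 770 for MUT T1, 1604 ± 419 for MUT T2, 1575 ± 91.9 for WT T1 and 681 ± 300 for WT T2 (SD, n = 2 each). MUT T1 is the group with 1 deeper and 1 shallower library.

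**Figure D1:**
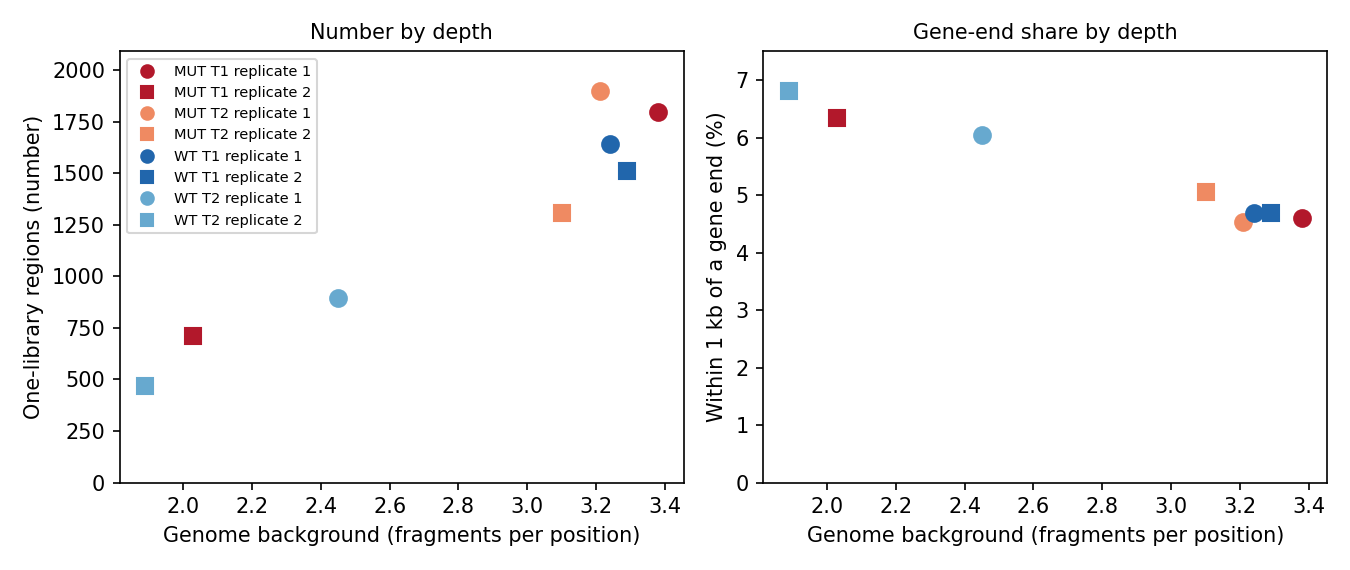
Number of single-library regions (left) and their share within 1 kb of a gene end in percent (right) against the genome background of each library in fragments per position; each point is 1 library. The 3 libraries with a background of 1.89 to 2.45 had 469 to 893 regions and shares of 6.05 to 6.82%, and the 5 with 3.10 to 3.38 had 1308 to 1900 and 4.53 to 5.05%.

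The numbers overlapped between genotypes and between populations. They come from the peak calls that chose the regions, so they are given as a description, with no test. MUT libraries had 1429 ± 545 and WT libraries 1128 ± 547 single-library regions (n = 4 of each, with SD), 301 more in MUT. T1 libraries had 1415 ± 484 and T2 libraries 1142 ± 610 (n = 4 each), a difference of 272. Among the deeper libraries the MUT mean was 1669 (n = 3) and the WT mean 1575 (n = 2), a difference of 94. Among the shallower ones it was 710 in the 1 MUT library and 681 in the 2 WT libraries. The genotype difference was 74.8 without WT T2 replicate 2 and 618 without MUT T1 replicate 2.

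The counts changed when the lists were made more alike. Scaling each list to the depth of the shallowest library, with 1 common threshold of 4.90 in −log10 p in place of the deposited one, left 9249 single-library regions. They then numbered 1177 to 1580 in the deeper libraries, and 621 to 1020 in the shallower ones. The ratio of the highest to the lowest library fell from 4.05 to 2.54, and the 3 shallower libraries still had the lowest counts. When each list was instead cut to its strongest 60944 peaks, the order turned: WT T2 replicate 2 then had the most (1493) and MUT T2 replicate 1 the fewest (729). Of the 8097 single-library regions under that rule, 2787 were also single-library as deposited (34.4%). Of the 9249 after scaling, 7227 were (78.1%).

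**Figure D2:**
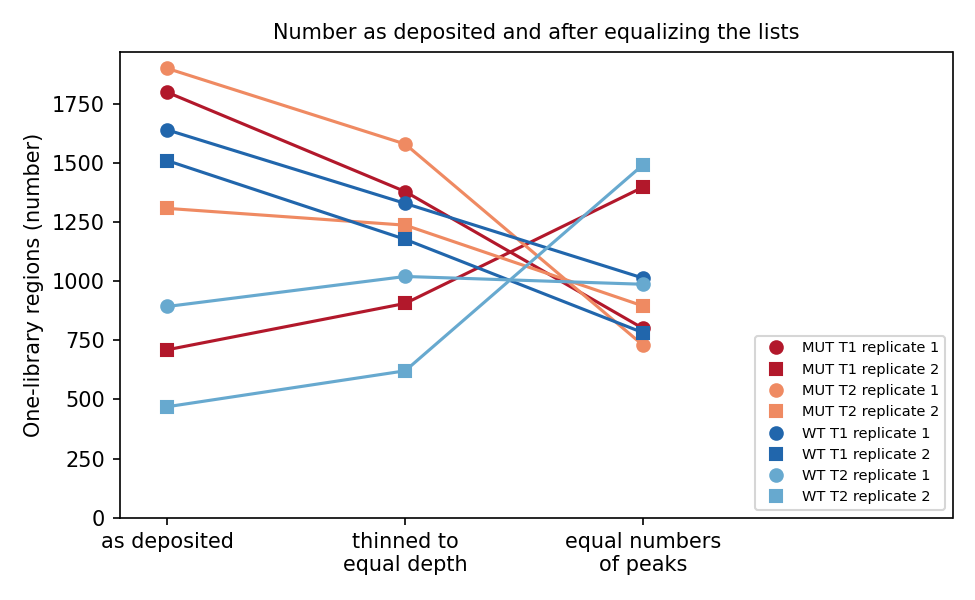
Number of single-library regions in each library as deposited, after scaling to equal depth and with equal numbers of peaks; each line is 1 library. WT T2 replicate 2 goes from 469 to 621 to 1493, and MUT T2 replicate 1 from 1900 to 1580 to 729.

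Single-library regions were weak calls in the main, but most weak calls were shared. Each consisted of 1 peak. Their median −log10 q was 5.43 to 6.45 per library, against 20.6 to 25.2 for the other peaks of the same lists. Under a −log10 q of 5 lay 2597 of them (25.4%), from 22.5% in WT T1 replicate 1 to 37.6% in MUT T1 replicate 2, against 1.55 to 2.65% of other peaks. Read the other way, among all peaks with a −log10 q of 3 to 4 the single-library share was 24.8%, from 10.8% in WT T2 replicate 2 to 33% in MUT T2 replicate 1. The share was 11.4% at a −log10 q of 5 to 7, 4.61% at 7 to 10, 0.776% at 10 to 20 and 0.0234% (71 of 302831 peaks) at 20 or more. It fell with strength in each of the 8 libraries.

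**Figure D3:**
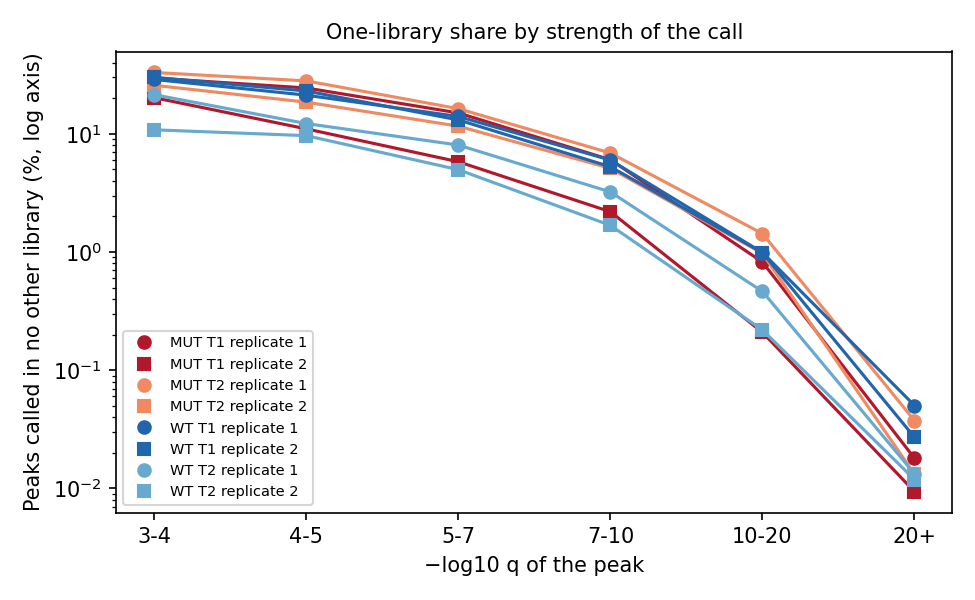
Percentage of peaks called in no other library (log axis) by the −log10 q of the peak; each line is 1 library. Shares fall from 10.8 to 33% in the weakest class to 0.00940 to 0.0503% in the strongest.

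A smaller set was strong in its own library. A −log10 q of at least 10 was reached by 1166 (11.4%), from 39 in MUT T1 replicate 2 to 276 in MUT T2 replicate 1. When all lists were limited to such peaks, 6782 regions were called once, and the 1166 made up 17.2% of them. The others lay in regions that more than 1 library had called as deposited. Just inside the rule, regions with 1 library had a median −log10 q of 6.12. Just outside it, the 5629 regions with 2 libraries had medians of 8.40 for their stronger and 5.95 for their weaker peak. Of those 5629 regions 1004 joined 2 libraries of the same group, a choice that 4 of the 28 library pairs offer. The pair with the most was MUT T1 replicate 1 with MUT T2 replicate 1 (627). The pair with the fewest was MUT T1 replicate 2 with WT T2 replicate 2 (37), both shallower. Of the same-group pairs, those of deeper libraries had 441 (WT T1) and 362 (MUT T2). Those with a shallower library had 140 (MUT T1) and 61 (WT T2). The part of depth in the same-group count was not tested.

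Single-library regions were narrow. Their median width per library was 264 to 290 bp in the deeper libraries and 242 to 251 bp in the shallower ones. The other peaks of the same lists had medians of 520 to 636 bp. The narrowest peak of each list was split in the same way, at 216 to 232 bp in the deeper and 200 to 205 bp in the shallower libraries. A width of 500 bp was reached by 289 single-library regions (2.83%). Together they covered 3.02 Mb. The median fold enrichment, the deposited ratio of summit to local background, was 3.88 to 4.49 per library against 6.25 to 7.70 for other peaks. The median summit pileup was 19 to 20 fragments in the deeper and 14 to 17 in the shallower libraries, against 38 to 51 for other peaks.

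The local background beneath them was low. It equalled the genome background for 42.7 to 57.9% of single-library regions per library. It exceeded 2 times the genome background for 17.3 to 25.1%, against 46.6 to 50.8% of other peaks. The nearest region called by further libraries lay a median of 4437 to 6333 bp away per library, and for 6098 of the 10229 (59.6%) it was one called in all 8. Within 1 kb of such a neighbour lay 1563 single-library regions (15.3%), 13.6 to 16.5% per library. These flanking regions had a median local background of 5.59 fragments against 3.31 for the rest, and a median fold enrichment of 3.52 against 4.14. Their gene-end share was 8.25% against 4.44%.

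Position relative to genes was not used to choose the regions. In each library single-library regions lay at gene ends less often than the library's other regions. The midpoint was within 1 kb of an end of a protein-coding gene span for 4.61% and 6.34% of those of MUT T1 and for 4.53% and 5.05% of those of MUT T2. It was so for 4.70% of those of either WT T1 library, and for 6.05% and 6.82% of those of WT T2. The 95% Wilson intervals were 3.68 to 5.56% for the lowest share and 4.87 to 9.47% for the highest, and cover counting error only. The mean was 5.35% ± 0.910 against 19.9% ± 1.08 for other regions (SD, n = 8), a difference of −14.6 percentage points (SD 0.252) that was negative in 8 of 8 libraries (exact two-sided sign-flip permutation p = 0.00781, the smallest this test can give). The libraries share most of their other regions, so the 8 differences are not independent. The p-value therefore cannot be read as that of 8 separate observations.

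The contrast rested on regions called everywhere. Against regions called in 2 to 7 libraries, which had a share of 5.26% ± 0.361, the mean difference was 0.0859 percentage points (SD 0.574, range −0.485 to 1.05, lower in 5 of 8 libraries, exact permutation p = 0.695). Over all libraries the share was 5.02% at 1 library, 4.65% at 2, 4.20% at 3, 4.85% at 4, 5.36% at 5, 5.18% at 6, 5.64% at 7 and 25.1% at 8. The median distance to a gene end was 21813 bp at 1 library, 20580 to 22901 bp at 2 to 7 and 10492 bp at 8. Inside a gene span lay 57.0% of single-library regions, 54.2 to 56.5% of those with 2 to 7 libraries and 60.4% of those with 8. More than 50 kb from any gene lay 15.3%, 14.2 to 15.6% and 10.1%.

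**Figure D4:**
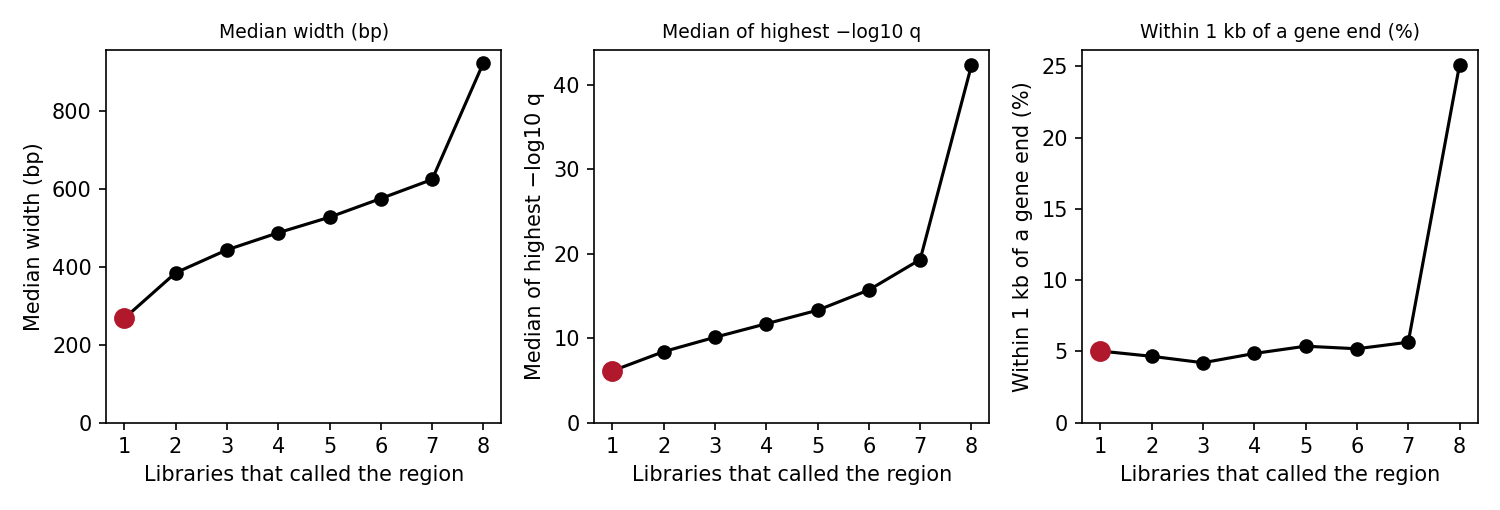
Median width in bp, median of the highest −log10 q and percentage within 1 kb of a gene end, by the number of libraries that called a region; red marks single-library regions. Width and −log10 q climb from 268 bp and 6.12 at 1 library, whereas the gene-end share is 4.20 to 5.64% at 1 to 7 libraries and 25.1% at 8.

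The gene-end share was higher in the 3 shallower libraries (6.05 to 6.82%) than in the 5 deeper ones (4.53 to 5.05%), and the ranges did not overlap. MUT libraries had 5.13% ± 0.836 and WT libraries 5.57% ± 1.05 (n = 4 of each, with SD), which differ by −0.436 (exact permutation test, two-sided, p = 0.571, and 0.571 after Benjamini-Hochberg adjustment over the 4 comparisons computed). With 70 arrangements the smallest p is 0.0286. It was 5.09% ± 0.835 in T1 and 5.61% ± 1.03 in T2, a difference of −0.523 (exact permutation p = 0.457, adjusted p = 0.571). Among deeper libraries the differences were 0.0301 for genotype and −0.116 for population. With a window of 2 kb the share was 7.74 to 9.72% in MUT and 9.93 to 11.1% in WT libraries, which did not overlap (difference −1.57, exact permutation p = 0.0286 without adjustment, lower in 4 of 4 MUT libraries than in any WT library). The highest MUT share at 2 kb (9.72%, MUT T1 replicate 2, 710 regions) lay next to the lowest WT share (9.93%, WT T1 replicate 2). Intervals for counting error are not given at 2 kb. With 5 kb the genotype difference was −2.76 (exact permutation p = 0.114). With 1 kb it was 0.528 at a −log10 q of at least 5 and 0.451 at 10, the other direction.

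The 2 strongest single-library regions stood far above all others and lay in 1 locus. Both were between genes, 39.7 and 33.9 kb from a gene end, near the Raet1 cluster of chromosome 10, whose genes encode stress-induced ligands of the NK-cell receptor NKG2D. One was called in WT T2 replicate 1 (22413775 to 22413980, near Raet1d, fold enrichment 24.8, −log10 q 98.8). The other was called in WT T2 replicate 2 (22223534 to 22223744, near Raet1e, fold enrichment 21.8, −log10 q 66.9). They lie 190 kb apart and belong to the same group, but neither was called in the other library. Their pileups were 91 and 62 fragments on local backgrounds of 2.71 and 1.89. Their widths of 206 and 211 bp were near the narrowest of their lists (202 and 205 bp). Of the 12107 peaks in WT T2 replicate 1 with a pileup as high, 2 were no wider, and their median width was 1027 bp. Of the 16419 in WT T2 replicate 2 there were 10, with a median of 903 bp. Only 10 and 12 peaks of these lists had a higher fold enrichment. Also in this stretch, MUT T2 replicate 1 alone called 22414461 to 22414677 (fold enrichment 5.70, −log10 q 10.9). A pair of regions at H60b, which encodes another such ligand, were called in all 8 libraries.

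The strongest regions of the other libraries were spread over the genome, with a −log10 q of 21.3 to 39.5, given after each gene in parentheses. In MUT T1 replicate 1 they lay inside Zfp652, a zinc-finger gene (33.9, chr11:95750971-95751266), inside Adgb, the androglobin gene (27.9), and inside Galnt7, which encodes an enzyme of O-linked glycan synthesis (27.5). In MUT T1 replicate 2 they lay near Gm33933 (22.6, chr14:6605167-6605377), near Krtap5-2, a gene of the keratin-associated proteins of hair (21.4), and near Mgarp (21.3). In MUT T2 replicate 1 they lay near the potassium channel gene Kcna7 (33.1, chr7:45403678-45403984), near Tmco5 (28.5) and inside Axin2, a negative regulator of Wnt signalling (26.1). In MUT T2 replicate 2 the first had no gene within 50 kb (27.0, chr19:26834518-26834820), and the next lay inside Marchf1, a ubiquitin ligase gene (26.0), and Ncan, which encodes the proteoglycan neurocan (22.8).

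In WT T1 replicate 1 the strongest lay 281 kb from a gene end but 0.620 kb from a region called in all 8 libraries (39.3, chr18:68710068-68710432). The next lay inside Stat3, a transcription factor gene of cytokine signalling (32.8, chr11:100935451-100935691), and near Dennd5a, a regulator of Rab GTPases (30.9). In WT T1 replicate 2 they lay inside Vwa3a (39.5, chr7:120754778-120755247), near the inositol pyrophosphate kinase gene Ppip5k2 (30.5) and inside Tango2 (29.6). WT T2 replicate 1 also called regions near the proteasome subunit gene Psmd12 (25.2) and the imprinted gene Snrpn (21.3). WT T2 replicate 2 called regions near Dct, an enzyme gene of melanin synthesis (28.3), and inside Stra8, a gene of meiotic entry (27.4). The region inside Stat3 stood on a local background of 32.0 fragments, 9.88 times that of its genome, and its fold enrichment was 3.81. The region inside Tango2 stood on 6.63 times the genome background. Those at Gm33933, Krtap5-2 and Ppip5k2 stood at 1.00 times theirs. A region called in 7 libraries lay 0.904 kb from that inside Zfp652. Regions called in all 8 lay 1.02, 1.18 and 1.20 kb from those at Tango2, Galnt7 and Kcna7. Apart from the chr18 region, the others lay farther from a region of further libraries, up to 151 kb at Gm33933.

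**Figure D5:**
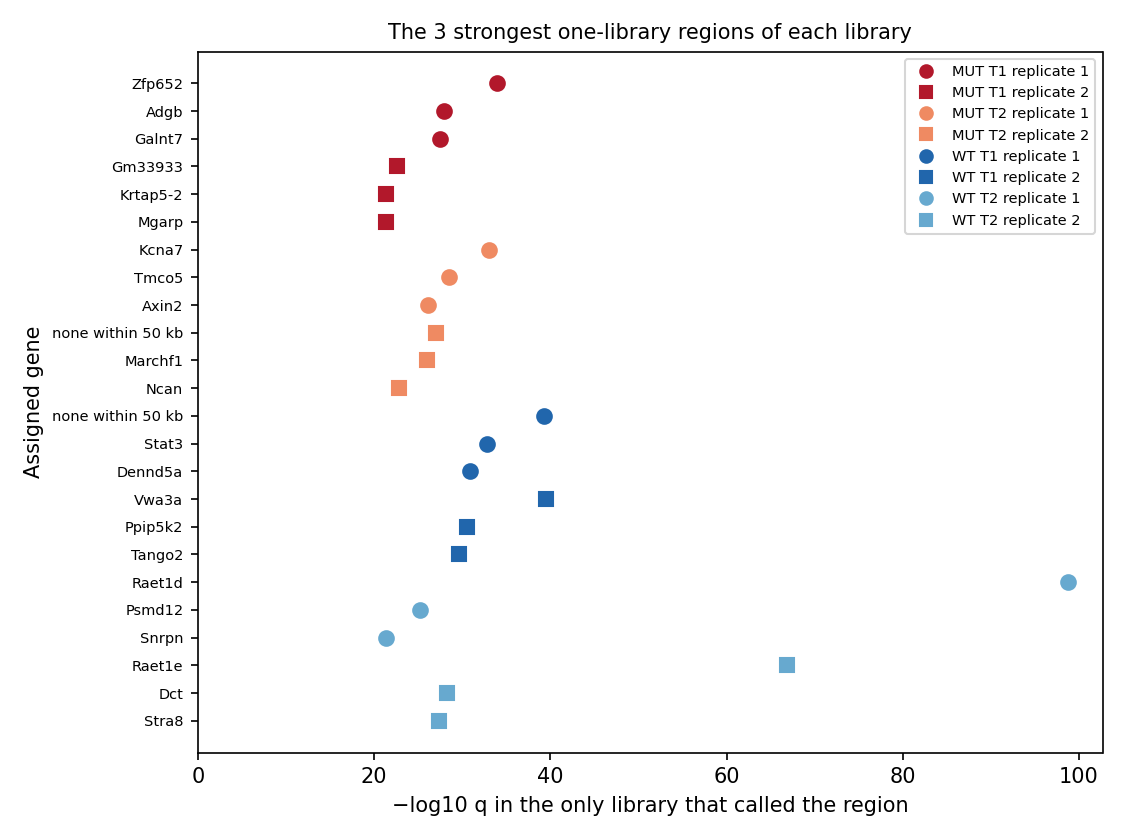
The 3 strongest single-library regions of each library by −log10 q (x axis), named by their assigned gene (y axis); each point is 1 region. The regions near Raet1d and Raet1e stand at 98.8 and 66.9, and the other 22 between 21.3 and 39.5.

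Of the 71 single-library regions with a −log10 q of 20 or more, 36 (50.7%) had a local background over 2 times that of their genome, against 18.3% of those under 5. Of the 71, 6 lay within 1 kb of a gene end. Among these, named after their values were seen, were regions at Wfdc12 (28.7), Irf2bp1 (26.4), Gm33933, Dennd2c (21.5) and Tmed10 (21.3).

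Single-library regions were assigned to 5372 of 20665 protein-coding genes, 3504 of them (65.2%) with 1 region each. The genes with the most, named after their counts were seen, had long spans, and several are known for roles in HSC. Mecom, a gene for a zinc-finger factor of HSC self-renewal, had 14 of its 65 regions (21.5%), from 6 libraries. Runx1, a gene for a founding factor of HSC, had 11 of 28 (39.3%), from 8 libraries. Msi2, an RNA-binding protein gene, had 11 of 41 (26.8%) and Mllt3 10 of 36 (27.8%). Over all regions the share was 11.5%. Other genes with 10 or more single-library regions had like or higher shares, such as Tmem131 (10 of 18, 55.6%) and the cell polarity gene Pard3b (11 of 32, 34.4%). Their −log10 q reached 8.37 at Mecom, 7.53 at Runx1, 10.3 at Msi2 and 7.62 at Mllt3. Arid1b and Rora had 12 of 60 each, and the 14 genes with 10 or more had spans of 147 to 1973 kb.

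Some of these regions were next to each other without overlapping. At Runx1, MUT T1 replicate 2 called 92785544 to 92785747 on chromosome 16 and WT T2 replicate 1 called 92785755 to 92786146, with a gap of 7 bp. At Mecom, MUT T2 replicate 1 called 30418340 to 30418637 on chromosome 3 and MUT T1 replicate 2 called 30418676 to 30418881, with a gap of 38 bp. In all, 140 single-library regions (1.37%) lay within 100 bp of one from another library, and 299 (2.92%) within 500 bp. Merging peaks less than 500 bp apart left 9141 single-library regions.

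The Bcl11a gene (chromosome 11, 24076564 to 24173558) with 5 kb on each side held 16 regions, of which 6 were called in 1 library and 6 in all 8. Over all regions these shares were 11.5% and 54.9%. By the assignment used for the other genes, Bcl11a had 26 regions. Of those 26, 7 (26.9%) were single-library and 12 were called in all 8. All 6 single-library regions among the 16 lay inside the gene, 17.9 to 47.9 kb from an end. MUT T2 replicate 1 called those starting at 24094339 (fold enrichment 3.33, −log10 q 5.90) and 24153257 (3.01, 4.26). WT T1 replicate 1 called those starting at 24100817 (2.83, 4.78) and 24102953 (2.66, 3.92). WT T1 replicate 2 called those starting at 24102297 (2.89, 5.30) and 24124286 (4.24, 10.3). The 5 weakest fell below a −log10 q of 6. No MUT T1 or WT T2 library had one, and neither had MUT T2 replicate 2. The libraries without one were the 3 shallower libraries (genome background 1.89 to 2.45) and 2 deeper ones. The deeper ones were MUT T1 replicate 1 (3.38, the highest of all) and MUT T2 replicate 2 (3.10). The part of depth was not tested. The WT T1 regions starting at 24102297 and 24102953 come from its 2 libraries and have a gap of 113 bp. They also lay 516 and 40 bp from a region called in 2 libraries, so the 6 are not 6 separate sites.

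Gene lists were read against the 11.5% of all regions that were called in 1 library, and the value in parentheses after a gene is the −log10 q of its region. HSC identity genes had 84 of 454 regions (18.5%), and the list also had 15.1 regions per gene, the most of all lists. The 84 came from 15 of its 30 genes. Called in all 8 libraries were 42.1% of the 454, against 54.9% of all regions. Among the 84 were a region inside Erg, an ETS factor gene (14.4, WT T1 replicate 1, chr16:95570591-95570865), and one inside Hlf, a factor gene that marks HSC (10.9, WT T2 replicate 2, chr11:90381210-90381469). The Hlf region lay 0.421 kb from a region called in 6 libraries, on 5.13 times the genome background. For Erg the nearest such region, called in 8, lay 8.22 kb away. The median −log10 q of the 84 was 5.40, against 6.12 over all single-library regions. MUT libraries had 5 to 12 regions of this list and WT libraries 6 to 19, and 44.0% of them were in MUT, against 55.9% of all single-library regions. As a share of each library's single-library regions the genotypes overlapped (0.526 to 0.917% in MUT, 0.784 to 1.28% in WT), and the difference was not tested.

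Lists of other cell types ranged from 7.48% to 15.3%. B lymphoid genes had 22 of 146 regions (15.1%), led by Bach2, a transcriptional repressor gene active in B cells (13.8), and Fcrla (10.4), both in MUT T2 replicate 2. T and NK lymphoid genes had 13 of 111 (11.7%), led by regions near the adhesion receptor gene Cd2 (10.9, MUT T2 replicate 1) and near Klrb1c, the NK1.1 gene (8.07, MUT T1 replicate 2). Granulocyte and monocyte genes had 12 of 92 (13.0%), led by Spi1, the PU.1 factor gene, 0.502 kb from a gene end (14.3), and Lyz2 (12.6), both in WT T1 replicate 2. Erythroid genes had 8 of 107 (7.48%), led by the haem synthesis genes Urod (16.7) and Alad (16.6), both in WT T1 replicate 2. Megakaryocyte and platelet genes had 17 of 116 (14.7%), led by the growth factor gene Pdgfb (15.5, MUT T2 replicate 1) and the granule transport gene Rab27b (11.7, WT T1 replicate 1). Stromal and endothelial genes had 29 of 189 (15.3%), led by Cdh5, the gene of VE-cadherin (16.0, MUT T2 replicate 2), and Pecam1, the CD31 gene (15.7, WT T1 replicate 1).

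The other lists ranged from 10.6% to 14.3%. HSC aging genes had 20 of 188 (10.6%), led by the integrin gene Itgb3 (8.79, MUT T1 replicate 1) and the nuclear receptor gene Rorb (8.63, WT T2 replicate 1). Genes of BCL11A partners and the globin switch had 19 of 155 (12.3%), led by Bcl11a itself and by a region 2.39 kb from an end of the adult globin gene Hbb-bs (10.3, MUT T2 replicate 2). AP-1 and immediate early genes had 16 of 142 (11.3%), led by regions near Jun (9.75, WT T2 replicate 2) and Egr1 (8.74, MUT T2 replicate 1), 42.8 and 15.3 kb from their ends. Olfactory and vomeronasal receptor genes had 26 of 209 (12.4%) for 1458 genes, and 10 of the 26 were in MUT T1 replicate 1. They were led by Olfr432 (14.5, MUT T2 replicate 1, 0.561 kb from a region called in 2 libraries) and Olfr1009 (14.2, WT T2 replicate 1).

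Neuronal and synaptic genes had 41 of 286 (14.3%), led by Cntnap2, a neurexin family gene (10.8, MUT T1 replicate 2), and Rims2, a gene of synaptic vesicle release (9.62, MUT T1 replicate 1). The Rims2 region lay 0.282 kb from a region called in all 8 libraries. Of the 41, 8 and 6 belonged to MUT T1, 6 and 9 to MUT T2, 2 and 2 to WT T1, and 3 and 5 to WT T2. All 4 MUT counts lay above all 4 WT counts, and 70.7% of its regions were in MUT, against 55.9% of all single-library regions. As a share of each library's single-library regions the groups overlapped (0.316 to 0.845% in MUT, 0.122 to 1.07% in WT). The list was 1 of 12 and was singled out after its counts were seen, and the difference was not tested. Its share in MUT was not the highest. Over the 12 lists that share ran from 42.1% (BCL11A partners and globin switch) to 76.9% (T and NK lymphoid, 13 regions).

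By chromosome the single-library share of regions ran from 10.3% (chromosome 17) to 13.6% (chromosome 12).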

How the data were processed

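ATAC-seq peak lists of 8 libraries in 4 groups of 2 were used, 1 deposited list per library, so the authors called peaks per sample. Bowtie2, SAMtools, MACS2 and mm10 are named in the submitters' processing notes, without versions. The sources used here give no filters and no shift of cut sites. For each peak the authors deposited a score (not used), the −log10 of its p-value and of its q-value, the offset of its summit, and a fold enrichment, which is a ratio of pileup at the summit to local background.

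Peaks on 19 chromosomes were merged when they overlapped by at least 1 bp. The deposited fold and −log10 p together gave each peak's pileup and local background. At least 99.9986% of pileups per library came out whole within 0.001 in −log10 p. This step skipped 5 to 7 peaks per library whose −log10 p exceeded 290. The lowest background in a list was its depth. Scaling to equal depth recomputed the Poisson p with pileup and background scaled down, and kept peaks at a −log10 p of at least 4.90.

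Genes came from a RefSeq table of GRCm38.p6 (20665 protein-coding genes). It gives spans without strand or exons, so whether a region is exonic, intronic or in a UTR was not analysed here. A region was assigned to the shortest span that holds its midpoint, or to the nearest span end within 50 kb. Named regions were the 3 with the highest −log10 q per library, the 2 highest per gene list and those at Bcl11a. The regions, lists and tests were chosen with earlier results of these data known. Of the list entries, Fhl1 and Gata1 did not match because they lie outside these chromosomes.

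Gene-end shares were compared by exact two-sided permutation tests. Numbers of regions had been planned for the same test, which is not reported because the calls chose the regions. The recovery, merging and assignment were checked on simulated data. Python 3.11.15, pandas 2.3.3, NumPy 2.4.6 and SciPy 1.17.1 were used.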

Additional observations from a re-analysis of the deposited data

Results flagged for a closer look

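Among the 4 T1 libraries, the gene-end share of MUT T1 replicate 2 (6.34%) stood apart from the 4.61 to 4.70% of the other 3. MUT T1 replicate 2 is also the shallowest T1 library (background 2.03), and the part of depth in this was not tested. It was the 1 sample that stood apart among 35 combinations of a measure and a set of libraries, and chance alone flags about 1 in 20.

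Chromosome X was outside the main count and held 284 single-library regions among 2012 (14.1%). They numbered 30 to 47 in MUT libraries, 34 and 54 in the WT T1 libraries, and 19 and 18 in those of WT T2.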

How the results depend on the processing

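The lower gene-end share of single-library regions against the other regions of a library kept its sign and its side of the threshold under each alternative with that comparison set: −14.8 percentage points at a −log10 q of at least 5, −17.1 at 10, −8.07 with windows of 100 bp on each side of a summit, and −14.9 to −14.2 with 1 library left out (exact permutation p = 0.0156). The differences of the libraries are not independent under any of these. Against regions called in 2 to 7 libraries, a set chosen after seeing the data, the difference was 0.0859. Single-library regions numbered 6782 at a −log10 q of at least 10, 17558 with summit windows and 10299 to 10587 with 1 library left out. In the 5 deeper libraries alone, also chosen after seeing the data, they numbered 10630. The genotype difference in number was −113 with equal numbers of peaks and 74.8 (without WT T2 replicate 2) to 618 (without MUT T1 replicate 2) with 1 library left out. The population difference was −37.5 at a −log10 q of at least 10, −27.8 with equal numbers of peaks and 43.2 (without WT T2 replicate 2) to 672 (without MUT T2 replicate 1) with 1 library left out. The genotype difference in gene-end share was 0.528 and 0.451 at a −log10 q of at least 5 and 10, −1.57 with a 2 kb window (exact permutation p = 0.0286), and from −1.09 (leaving out MUT T1 replicate 2) to 0.214 (without WT T2 replicate 2). The population difference in share was 0.895 and 1.52 at a −log10 q of at least 5 and 10, 0.597 with equal numbers of peaks, 0.0309 after scaling to equal depth, 0.314 with summit windows, 0.00593 with peaks under 500 bp apart merged, 0.903 with a 5 kb window, and −1.18 to 0.00810 without the same 2 libraries. The cause of these changes was not tested.

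The labels do not say that a replicate number marks a shared animal or day, and the libraries were treated as sharing only a number. With the replicate block the differences in number stayed at 301 for genotype and 272 for population, and those in gene-end share were −0.436 and −0.523 (exact permutation p = 0.625 each). No such test can pass, and no call changed.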
